A study of Mus musculus with 6 samples.

Results

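The genes described here carry glucose and lactate across the cell membrane, run glycolysis and the pentose phosphate pathway, and pass pyruvate into mitochondria. They were chosen by symbol from a fixed list of 35 genes, and all 35 were among the 12161 genes of the deposited expression table. Messenger RNA had been sequenced from bone marrow LSK cells, a sorted fraction (negative for lineage markers, positive for Sca1 and Kit) that holds blood stem cells and early progenitors. The cells came from C57BL/6 mice, were transduced with a retrovirus on retronectin-coated plates and spent 2 days in medium with stem cell factor and Flt3 ligand (50 ng/mL each), IL-6 and IL-3 (10 ng/mL each). RNA was taken from cells sorted positive for GFP. The control group carried the empty GFP vector MIG (3 libraries), and the other group carried MIG-Hhex, the same vector with the homeobox transcription factor Hhex (3 libraries). Both groups were thus wild-type cells that had been transduced, sorted and kept in cytokines. Their replicates are named WT3, WT691 and WT703, and the libraries of WT3 were run on flow cell C3RJFACXX and the other 4 on flow cell C5LWPANXX. The comparison asks which of these metabolic genes differ in level when Hhex is added to the vector.

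Glycolysis splits glucose into pyruvate in the cytosol and yields ATP without oxygen. Pyruvate is then reduced to lactate by lactate dehydrogenase and exported, or carried into mitochondria and oxidized by the pyruvate dehydrogenase complex. The pentose phosphate pathway branches off at glucose 6-phosphate, where its oxidative arm makes NADPH and its non-oxidative arm exchanges sugars with glycolysis. Blood stem cells are known for leaning on glycolysis, and cytokine-stimulated progenitors and granulocytes use glucose heavily. HIF-1, the hypoxia-inducible factor, is a textbook activator of many of these genes.

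Values are the authors' normalized log2 expression values, so a difference of 1 is a doubling. Read depth cannot be recovered from them. Library medians over all genes lay between 3.56 and 3.6. Hhex stood at 5.18, 5.05 and 5.13 in the MIG libraries of WT3, WT691 and WT703 and at 7.61, 9.34 and 9.06 in the MIG-Hhex libraries, so its rise was smallest in the WT3 pair. Of the stem and progenitor markers, Kit and Cd34 had group means of 4.73 and 7.29 with MIG. Ly6a, which encodes Sca1, lay at 3.18 and 3.55 in the 2 libraries of WT3 and between 5.89 and 6.25 in the other 4, so the WT3 libraries stood apart in a marker of the sort. The replicates are described as biological, with no count of mice per replicate. In the main limma fit, p-values measure the spread between these libraries left once the difference between flow cells is fitted. WT3 alone was on flow cell C3RJFACXX, so that replicate and its flow cell cannot be told apart. In bulk RNA, fewer cells of a type and less RNA per cell cannot be told apart.

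With MIG-Hhex, 11 of the 35 genes rose and 1 fell, while 23 missed the threshold (limma, Benjamini-Hochberg adjusted p below 0.05 over all genes). Of all genes measured, 9.44% were called higher and 8.52% lower. The genes that rose stand at the entry of glucose (Slc2a1, Slc2a3, Hk1), in upper glycolysis, down to triose phosphates (Gpi1, Pfkl, Pfkfb4, Aldoa), at the lactate step (Ldhb, Slc16a3) and in the pentose phosphate pathway (H6pd, Taldo1). The gene that fell was Pgam1 of lower glycolysis. The median log2 difference of the 35 genes was 0.14, against −0.02 for all genes, and it was 0.12, 0.16 and 0.12 in the pairs of WT3, WT691 and WT703. A positive difference was found for 23 of the 35 (65.7%) and for 46.1% of all genes. In 9 of the 35 the MIG-Hhex libraries all lay above the MIG libraries and in 1 all lay below, while this held for 10.2% and 11.0% of all genes. Whether the 35 genes stand apart from other genes was not tested.

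**Figure D1:**
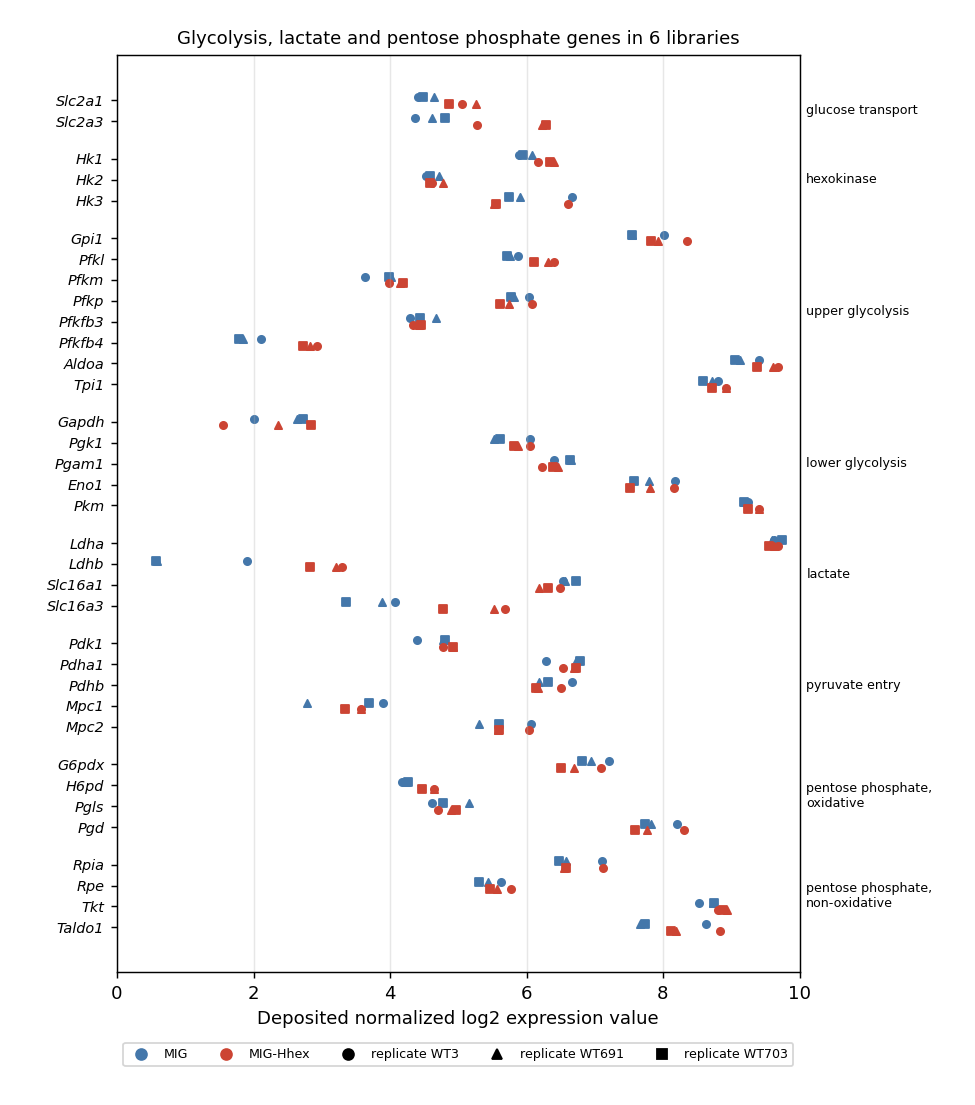
Deposited normalized log2 values (x axis) of the 35 genes in each library, grouped by role. Blue points are MIG and red points MIG-Hhex libraries, with the shape showing the replicate. Slc2a3, Pfkfb4, Ldhb and Slc16a3 have all 3 red points to the right of all blue points, while Ldha overlaps between 9.55 and 9.75.

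Promoter sequence is shown for the genes that rose with the smallest p, as a view of the DNA just before their start sites. The sequences are the 250 bases before the start in the RefSeq promoter table (GRCm38.p6, the build of mm10), read 5′ to 3′ on the gene's strand. For Pfkfb4 and Slc16a3 that start lies inside the span of the gene, which RefSeq begins farther upstream. Slc2a3 had the smallest p of all and is named only. Slc16a3, the next in order, was added after the values were seen. Capitals mark the motifs searched on both strands. These were ACGTG and GCGTG (both forms of the core of the HIF response element), CACGTG (the E-box, which contains ACGTG) and ATTAA (a core bound by homeodomains of the Hhex type). GCGTG was added after the sequences were seen.
Pfkfb4, chr9:108991652-108991901 (plus strand): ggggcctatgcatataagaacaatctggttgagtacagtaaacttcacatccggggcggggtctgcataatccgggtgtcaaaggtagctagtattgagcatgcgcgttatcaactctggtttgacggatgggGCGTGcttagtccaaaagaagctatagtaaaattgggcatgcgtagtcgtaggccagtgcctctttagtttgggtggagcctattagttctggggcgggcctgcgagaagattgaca
Ldhb, chr6:142507958-142508207 (minus strand): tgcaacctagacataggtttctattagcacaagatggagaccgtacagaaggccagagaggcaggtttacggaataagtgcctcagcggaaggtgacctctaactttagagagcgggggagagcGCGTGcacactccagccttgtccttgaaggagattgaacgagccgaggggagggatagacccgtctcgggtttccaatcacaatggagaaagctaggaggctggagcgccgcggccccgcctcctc
Pfkl, chr10:78009808-78010057 (minus strand): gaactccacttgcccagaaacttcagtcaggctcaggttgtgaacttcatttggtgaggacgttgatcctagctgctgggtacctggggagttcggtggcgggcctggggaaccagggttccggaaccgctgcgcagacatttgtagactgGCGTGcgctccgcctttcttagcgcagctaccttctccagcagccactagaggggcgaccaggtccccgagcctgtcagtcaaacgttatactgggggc
Slc16a3, chr11:120948817-120949066 (plus strand): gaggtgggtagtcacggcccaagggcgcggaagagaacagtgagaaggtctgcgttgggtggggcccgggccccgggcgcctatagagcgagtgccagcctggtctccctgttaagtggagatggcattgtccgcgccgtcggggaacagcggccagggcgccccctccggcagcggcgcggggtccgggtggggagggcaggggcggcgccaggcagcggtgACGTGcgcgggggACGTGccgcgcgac

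Slc16a3 held ACGTG at 2 places near its start, and the windows of Pfkfb4, Ldhb and Pfkl held GCGTG at 1 place each and none of the other motifs. Of the 10 genes that rose and had a RefSeq promoter, 3 held ACGTG (Slc16a3, Slc2a1 and Aldoa), against 9 of the 23 that did not pass and 25.5% of the 9699 genes of the deposited table with a promoter. GCGTG was in 6 of the 10 (Pfkfb4, Ldhb, Pfkl, Hk1, Slc2a1 and Taldo1), in 17 of the 23 and in 50.1% of the table's genes. The E-box was in 0 of the 10 and in 4 of the 23 (10.1% of the table's genes). ATTAA was in 1 of the 10, H6pd, and in 5 of the 23 (17.9%). Pgam1, the gene that fell, held ACGTG at 1 place, GCGTG at 2 and neither of the other motifs. Among all 32851 promoters of this length the shares were 16.6% for ACGTG, 28.2% for GCGTG, 6.02% for the E-box and 24.9% for ATTAA. A gene with several starts was counted once if any of its windows held the motif.

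Both glucose transporters rose. Slc2a3 (GLUT3, a transporter with high affinity for glucose, chromosome 6 from 122727809 to 122802363 in GRCm38) stood at 4.37, 4.61 and 4.81 with MIG and at 5.27, 6.23 and 6.29 with MIG-Hhex, for WT3, WT691 and WT703. The groups did not overlap, and the WT3 library was the lowest of both. The rise was 2.52-fold (log2 1.33, SE 0.14, limma adjusted p = 0.00246). Slc2a1 (GLUT1, the transporter of most growing cells) stood at 4.41, 4.65 and 4.48 with MIG and at 5.05, 5.26 and 4.87 with MIG-Hhex. It rose 1.46-fold (log2 0.55, SE 0.11, limma adjusted p = 0.0198), again without overlap. With MIG both transporters had nearly the same level, and Slc2a3 made up 49.3%, 49.3% and 55.8% of their sum on the linear scale. With MIG-Hhex its share was 53.8%, 66.2% and 72.8%. The log2 value of Slc2a3 minus that of Slc2a1 was 0.78 higher with MIG-Hhex, but the groups overlapped (two-sided exact permutation p = 0.2).

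Hexokinases phosphorylate glucose and so hold it in the cell. Hk1, the broadly expressed form, stood at 5.89, 6.08 and 5.95 with MIG and at 6.17, 6.41 and 6.34 with MIG-Hhex, a 1.26-fold rise (log2 0.33, SE 0.06, limma adjusted p = 0.0138). Hk2, the growth-induced form, had a difference of 0.05 (95% interval −0.12 to 0.23), and its libraries lay between 4.53 and 4.78 in both groups. Hk3, the form of myeloid cells, had a difference of −0.21 (−0.38 to −0.03, limma adjusted p = 0.0985). Hk3 lay at 6.66 and 6.61 in the libraries of WT3 and at 5.53 to 5.91 in the other 4. On the linear scale Hk1 made up 44.0% and 44.4% of the 3 hexokinases in the MIG libraries of WT691 and WT703 and 53.6% and 53.4% in their MIG-Hhex libraries. In WT3 the shares were 32.4% and 37.1%.

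In upper glycolysis, 4 of 8 genes rose and 4 did not pass, where 9.44% of all genes rose and 8.52% fell. Gpi1, which turns glucose 6-phosphate into fructose 6-phosphate, stood at 8.01, 7.55 and 7.55 with MIG and at 8.35, 7.93 and 7.83 with MIG-Hhex. The groups overlapped, with the WT3 library the highest of each, and every pair was positive (log2 0.34, SE 0.05, 1.26-fold, limma adjusted p = 0.011). Pfkl, the liver-type phosphofructokinase, stood at 5.88, 5.76 and 5.72 with MIG and at 6.40, 6.31 and 6.11 with MIG-Hhex and rose 1.40-fold (log2 0.49, SE 0.06, limma adjusted p = 0.00557). The muscle type Pfkm (difference 0.23, interval 0.07 to 0.39, limma adjusted p = 0.058) and the platelet type Pfkp (−0.06, −0.21 to 0.09) did not pass. Pfkl made up 43.0%, 42.8% and 42.8% of the 3 phosphofructokinases with MIG and 50.4%, 52.5% and 50.7% with MIG-Hhex. Pfkp went from 47.8%, 44.3% and 44.3% to 40.2%, 35.7% and 35.8%. By these shares Pfkp lay above Pfkl with MIG and below it with MIG-Hhex in each pair. The distance with MIG was small, as Pfkl minus Pfkp was −0.15, −0.05 and −0.05 on the log2 scale. Which of 2 genes is higher rests on the scale of the deposited values, whose normalization is not given in the sources used here.

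Pfkfb4 makes and removes fructose 2,6-bisphosphate, the activator of phosphofructokinase. It stood at 2.11, 1.85 and 1.79 with MIG and at 2.93, 2.83 and 2.73 with MIG-Hhex, with no overlap. The 3 pairs differed by 0.83, 0.98 and 0.94, a 1.89-fold rise (log2 0.92, SE 0.09, limma adjusted p = 0.00269). Its relative Pfkfb3 had a difference of −0.05 (interval −0.25 to 0.14), and Pfkfb4 went from 14.7% ± 2.92 to 25.1% ± 2.09 of the sum of both (SD, n = 3). Aldoa, the aldolase that splits the sugar, rose 1.29-fold (log2 0.36, SE 0.09, limma adjusted p = 0.0345). Its libraries, at 9.40, 9.13 and 9.06 with MIG and 9.69, 9.61 and 9.38 with MIG-Hhex, overlapped. Tpi1, the triose phosphate isomerase, had a difference of 0.16 (interval −0.03 to 0.35) and did not pass.

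In lower glycolysis, from Gapdh to pyruvate kinase, 0 of 5 genes rose, 1 fell and the other 4 missed the threshold (limma). Among all genes 9.44% rose and 8.52% fell. Pgam1, a phosphoglycerate mutase, stood at 6.41, 6.65 and 6.64 with MIG and at 6.23, 6.46 and 6.39 with MIG-Hhex. It fell by 0.21 on the log2 scale (SE 0.05, 1.15-fold lower, limma adjusted p = 0.0343), the pairs by −0.18, −0.19 and −0.25. Pgk1, which makes ATP, had a difference of 0.19 (interval 0.01 to 0.36), Eno1 (enolase) one of −0.02 (−0.26 to 0.22) and Pkm (pyruvate kinase) one of 0.15 (−0.03 to 0.32). Whether upper and lower glycolysis differ as groups was not tested. Gapdh, the enzyme between Tpi1 and Pgk1, was listed at 2.01, 2.64 and 2.73 with MIG and at 1.55, 2.36 and 2.84 with MIG-Hhex, far under Tpi1 (mean 8.70 with MIG). In GENCODE M21, 70 other genes, 68 of them pseudogenes, hold a transcript at least 95% identical to that of Gapdh over at least 50% of its length. How reads shared with such copies were counted is not given in the sources used here, so the level of Gapdh is uncertain. Pgk1, Eno1, Pkm, Ldha, Ldhb and Pdhb had between 1 and 3 such copies each, and the remaining 28 genes had 0. A copy of Eno1, Eno1b, is itself among the genes of the deposited table. How reads were divided between Eno1 and Eno1b is likewise not given, so the level of Eno1 is uncertain too.

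**Figure D2:**
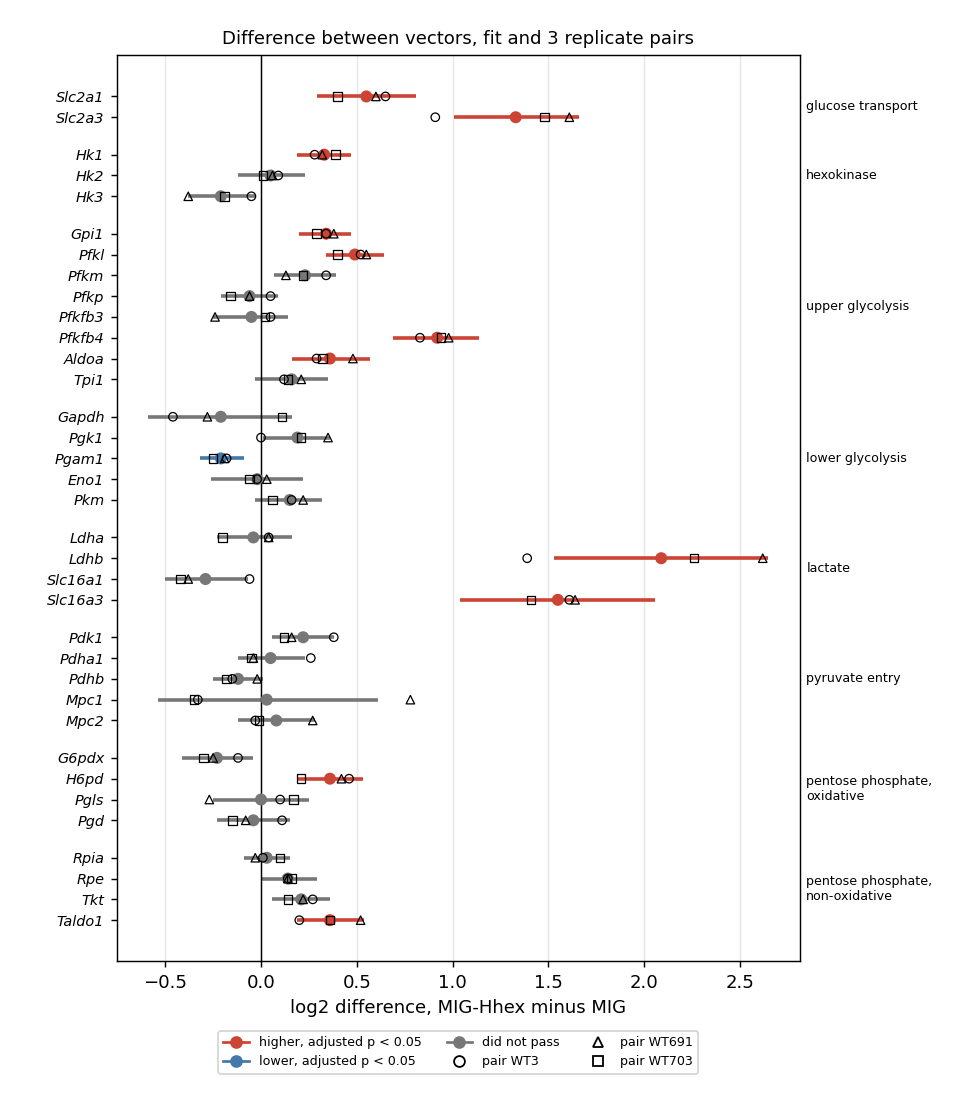
Log2 difference of MIG-Hhex minus MIG (x axis) for the 35 genes by role. Filled points and bars are the limma estimate with its 95% interval, coloured by the test, and open symbols are the 3 replicate pairs. Ldhb, Slc16a3 and Slc2a3 lie farthest to the right, at 2.09, 1.55 and 1.33, and Pgam1 is the single blue point.

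At the lactate step the minor member of each family rose. Ldhb encodes the H subunit of lactate dehydrogenase, the form of heart and other oxidative tissues, and lies on chromosome 6 from 142490249 to 142507957. It stood at 1.91, 0.58 and 0.57 with MIG and at 3.29, 3.21 and 2.83 with MIG-Hhex. The groups did not overlap, and the MIG library of WT3 was the highest of its group. Ldhb rose 4.26-fold (log2 2.09, SE 0.23, limma adjusted p = 0.00336), the largest estimate among the 35 genes. The pairs differed by 1.39, 2.62 and 2.26, and in the WT3 pair Slc16a3 (1.61) differed more than Ldhb. The offset of the deposited values is unknown, so the size of a change at such low levels is uncertain, and with log2(2^value + 1) the difference of Ldhb was 1.64.

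Ldha, the M subunit and with MIG the highest of the 35 genes by its mean, lay between 9.55 and 9.75 in all 6 libraries, with a difference of −0.04 (interval −0.23 to 0.16). Ldhb made up 0.47%, 0.194% and 0.172% of both subunits on the linear scale with MIG and 1.18%, 1.15% and 0.938% with MIG-Hhex. The log2 distance from Ldhb to Ldha fell by 2.13, with no overlap between groups (two-sided exact permutation p = 0.1, the smallest that 3 against 3 allows). Ldhb had a single near-identical copy, a pseudogene.

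Slc16a3 (MCT4, which exports lactate from strongly glycolytic cells) lies on chromosome 11 from 120948484 to 120959000, and its promoter is the one printed with 2 ACGTG motifs. It stood at 4.08, 3.89 and 3.36 with MIG and at 5.69, 5.52 and 4.77 with MIG-Hhex. All MIG-Hhex libraries lay above all MIG libraries, and the rise was 2.93-fold (log2 1.55, SE 0.21, limma adjusted p = 0.00633). Its 3 pairs were close to each other, at 1.61, 1.64 and 1.41. Slc16a1 (MCT1, which moves lactate and pyruvate in either direction) stood at 6.54, 6.57 and 6.73 with MIG and at 6.49, 6.19 and 6.31 with MIG-Hhex. The groups were separate, with MIG-Hhex below, but the difference of −0.29 (SE 0.09) did not pass (limma adjusted p = 0.0733). With a replicate block, under which 12.4% of all genes were called higher and 12.1% lower, it was called lower (limma adjusted p = 0.0458). Slc16a3 went from 15.3%, 13.4% and 8.85% of both transporters to 36.5%, 38.6% and 25.6% on the linear scale.

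In all, 8 pairs of related genes were compared by the difference of their log2 values within a library. The groups did not overlap for 5 of them (Hk2 against Hk1, Pfkl against Pfkp, Pfkfb4 against Pfkfb3, Ldha against Ldhb, and Slc16a3 against Slc16a1). Each of these had the smallest exact permutation p that the design allows, 0.1 (0.16 after adjustment over the 8 pairs, two-sided), so none could pass. The changes of these log2 differences were −0.28, 0.55, 0.97, −2.13 and 1.84. For Slc2a3 against Slc2a1, Hk3 against Hk1 and Pfkl against Pfkm the groups overlapped, with changes of 0.78, −0.54 and 0.26 (exact permutation p = 0.2, 0.4 and 0.3).

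**Figure D3:**
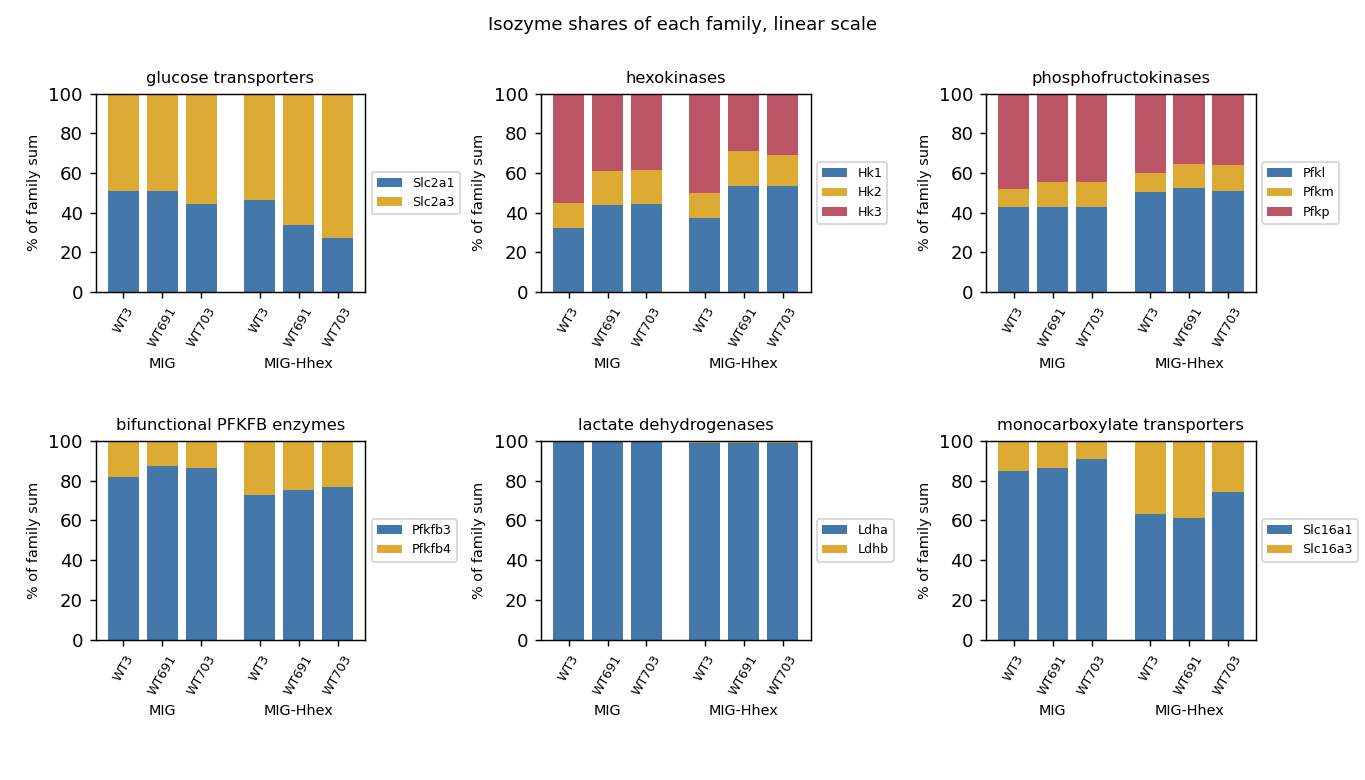
Share of each family's summed linear value (y axis, percent) held by its members in each library, MIG on the left and MIG-Hhex on the right of each panel. Slc16a3 grows from between 8.85% and 15.3% to between 25.6% and 38.6%, and Ldha keeps at least 98.8% of its family in every library.

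Genes that direct pyruvate into mitochondria gave 0 calls among 5 (limma, where 9.44% of all genes were called higher and 8.52% lower). Of the 5, 1 (Pdk1) had an unadjusted limma p below 0.05. Pdk1, a kinase that switches off pyruvate dehydrogenase, had a difference of 0.22 (interval 0.06 to 0.38, limma adjusted p = 0.0676). The dehydrogenase subunits Pdha1 and Pdhb had differences of 0.05 and −0.12. Of the mitochondrial pyruvate carrier subunits, Mpc2 had a difference of 0.08 (−0.12 to 0.28). Mpc1 had 0.03 (−0.54 to 0.61), an interval widened by the MIG library of WT691, which lay at 2.79 while the other 5 lay between 3.34 and 3.90.

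Of 4 genes of the oxidative pentose phosphate arm, 1 rose and 3 did not pass, where 9.44% of all genes rose. H6pd, the glucose 6-phosphate dehydrogenase of the endoplasmic reticulum, stood at 4.18, 4.24 and 4.26 with MIG and at 4.64, 4.65 and 4.47 with MIG-Hhex. It rose 1.28-fold without overlap (log2 0.36, SE 0.07, limma adjusted p = 0.0197). G6pdx, the cytosolic dehydrogenase that controls entry to the pathway, went the other way in each pair, by −0.12, −0.25 and −0.30, and did not pass (log2 −0.23, SE 0.08, limma adjusted p = 0.0912). With a replicate block it was called lower (limma adjusted p = 0.0278). Pgd, the second NADPH-forming enzyme, had a difference of −0.04 (interval −0.23 to 0.15), and Pgls, the lactonase between them, one of 0.00 (−0.25 to 0.25).

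Of the 4 genes of the non-oxidative arm, 1 rose, where 9.44% of all genes did. Taldo1 (transaldolase) stood at 8.63, 7.67 and 7.74 with MIG and at 8.83, 8.19 and 8.11 with MIG-Hhex, and the groups overlapped, with the WT3 library the highest of each. It rose 1.29-fold (log2 0.36, SE 0.07, limma adjusted p = 0.0203). Tkt (transketolase) stood at 8.53, 8.73 and 8.74 with MIG and at 8.80, 8.94 and 8.88 with MIG-Hhex, separate groups with a difference of 0.21 that did not pass (limma adjusted p = 0.0634). With a replicate block it did (limma adjusted p = 0.0408). The isomerase Rpia and the epimerase Rpe, which interconvert pentose phosphates, had differences of 0.03 (−0.09 to 0.15) and 0.14 (0.00 to 0.29).

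Levels spread widely among the 35 genes. With MIG, the highest were Ldha (9.66 ± 0.08), Pkm (9.21 ± 0.03), Aldoa (9.20 ± 0.18), Tpi1 (8.70 ± 0.11) and Tkt (8.67 ± 0.12, SD, n = 3). Pkm and Aldoa, and likewise Tpi1 and Tkt, did not differ beyond their spread. The lowest were Gapdh (2.46 ± 0.40), Pfkfb4 (1.92 ± 0.17) and Ldhb (1.02 ± 0.77). On the linear scale the 35 genes made up 1.09%, 1.11% and 1.08% of the sum over all genes with MIG and 1.25%, 1.26% and 1.15% with MIG-Hhex. Upper glycolysis held 0.309%, 0.307% and 0.284% with MIG and 0.377%, 0.386% and 0.338% with MIG-Hhex. The lactate genes held 0.182%, 0.205% and 0.222% against 0.199%, 0.210% and 0.197%, since Ldha dominates them.

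Calls of Slc2a3, Pfkl, Pfkfb4, Ldhb and Slc16a3 were kept in each of 9 fits with a library or a replicate removed (limma adjusted p at most 0.0339, 0.035, 0.0349, 0.0405 and 0.0408). The other 7 calls each missed the threshold in some of these fits. Without WT691, 9 of the 35 genes were called higher (5.16% of all genes, with 4.09% lower), and without WT703, 7 were (2.92%, with 2.22% lower). Slc2a1 missed it without WT3 (limma adjusted p = 0.0952), MIG WT703 (0.0771) or MIG-Hhex WT691 (0.0686). Hk1 missed it without WT703 (0.0729) or MIG-Hhex WT691 (0.065), and Gpi1 without WT3 (0.0503), WT703 (0.0681) or MIG-Hhex WT691 (0.0598). H6pd missed it without WT3 (0.0882), WT691 (0.0831), MIG WT703 (0.0599) or MIG-Hhex WT691 (0.0838). Taldo1 missed it without WT691 (0.0621), WT703 (0.122), MIG WT703 (0.0754), MIG-Hhex WT691 (0.0896) or MIG-Hhex WT703 (0.0645). Aldoa missed it in 8 fits (0.0551 to 0.125), all but the one without WT691, and Pgam1 in all 9 (0.074 to 0.165). Leaving out 1 library of WT3 removes its pair from the estimate. On flow cell C5LWPANXX alone, 8 genes were called higher or lower, namely Slc2a3, Hk1, Pfkl, Pfkfb4, Ldhb, Slc16a3 and Taldo1 (higher) and Slc16a1 (lower, limma adjusted p = 0.0483), where 5.74% of all genes were called higher and 4.27% lower. Flow cell C3RJFACXX holds 1 pair, in which Slc2a3, Hk1, Pfkl, Pfkfb4, Ldhb, Slc16a3 and Taldo1 were higher by 0.91, 0.28, 0.52, 0.83, 1.39, 1.61 and 0.20, and Slc16a1 differed by −0.06. Without a flow cell term the single call was Pfkfb4 (limma adjusted p = 0.0409), with 0.979% of all genes called higher and 0.806% lower. In eBayes without a trend, 7 of the 35 genes were called higher and 0 lower, against 6.50% and 5.25% of all genes. After quantile normalization 11 were called higher and 0 lower (Pgam1 at limma adjusted p = 0.0723), against 9.32% and 7.95%.

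Of 34 further genes of the same pathways measured, 2 rose and 2 fell, where 9.44% and 8.52% of all genes did. The other 30 missed the threshold, and the median difference was −0.05. With a replicate block 4 rose and 5 fell, where 12.4% of all genes were called higher and 12.1% lower. That fit added Aldoc (0.46) and Pgam2 (0.75) higher (limma adjusted p = 0.0206 and 0.0284). It also added Dlat (−0.20), Prps1 (−0.22) and Prps2 (−0.21) lower (limma adjusted p = 0.0412, 0.0198 and 0.0335). Pdk2, a second kinase acting on pyruvate dehydrogenase, stood at −0.24, −0.71 and −0.81 with MIG and at 1.10, 0.64 and 0.76 with MIG-Hhex, separate groups and a 2.68-fold rise (log2 1.42, SE 0.17, limma adjusted p = 0.00448). Its size is uncertain for the same reason as that of Ldhb. Gpd2, the mitochondrial glycerol phosphate dehydrogenase, rose by 0.24 (limma adjusted p = 0.0294). The phosphoglucomutase Pgm1 and the mitochondrial malic enzyme Me2 fell by 0.26 and 0.27 (limma adjusted p = 0.0176 and 0.0222).

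Targets of HIF outside glycolysis were listed as well, since HIF acts on many of the 35 genes. Among 17 measured, 6 rose and 1 fell, where 9.44% and 8.52% of all genes did. The other 10 missed the threshold, and the median difference was 0.17. Those that rose included Ddit4, a brake on mTOR (log2 1.39, SE 0.21), and Ankrd37, an ankyrin repeat protein (1.04, SE 0.18). The mitophagy receptors Bnip3 (0.97, SE 0.15) and Bnip3l (0.79, SE 0.10) and the collagen hydroxylase Plod1 (0.66, SE 0.10) rose too. The remaining one, named after its value was seen, was Mxi1, a MYC antagonist (0.46, SE 0.11). Egln3, a prolyl hydroxylase that marks HIF for destruction and is itself a HIF target, went the other way. It stood at 5.38, 5.20 and 5.24 with MIG and at 3.22, 3.57 and 3.30 with MIG-Hhex, a 3.76-fold fall (log2 −1.91, SE 0.11, limma adjusted p = 0.000662). Ero1l was also called lower with a replicate block (−0.36, limma adjusted p = 0.0237). The 10 that missed the threshold in the main fit are named after their values were seen. Differences were positive for Vegfa (0.30), Kdm3a (0.23), Higd1a (0.17), P4ha1 (0.14), Ak4 (0.10) and Ndrg1 (0.04). They were negative for Car9 (−0.10), Ero1l, Plod2 (−0.41) and P4ha2 (−1.05, below 0 in every library).

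Of 8 genes of HIF and its regulators, 1 rose (Vhl, which targets HIF for degradation, by 0.36), 1 fell (Egln3, counted in both lists) and the other 6 missed the threshold. The shares of all genes, 9.44% higher and 8.52% lower, stand beside this count and those of the lists that follow. Hif1a, chosen after its value was seen, had a difference of 0.10 (limma adjusted p = 0.381). Of 13 glucose sensing and growth regulators, 3 rose and 1 fell. Txnip, an arrestin that restrains glucose uptake, rose by 0.57 (SE 0.10), Akt2 by 0.32 and Mlx, a partner of the glucose-sensing MondoA, by 0.23, while Prkaa1, a catalytic subunit of AMP kinase, fell by 0.42. Mycn was also called lower with a replicate block (−0.44, limma adjusted p = 0.0329). Of 12 genes of NRF2, the oxidant response factor, and its targets, 3 rose (Slc7a11 by 0.71, Srxn1 by 0.40, Gclm by 0.25) and 2 fell (Gsr, glutathione reductase, by 0.75, and Gclc by 0.36).

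**Figure D4:**
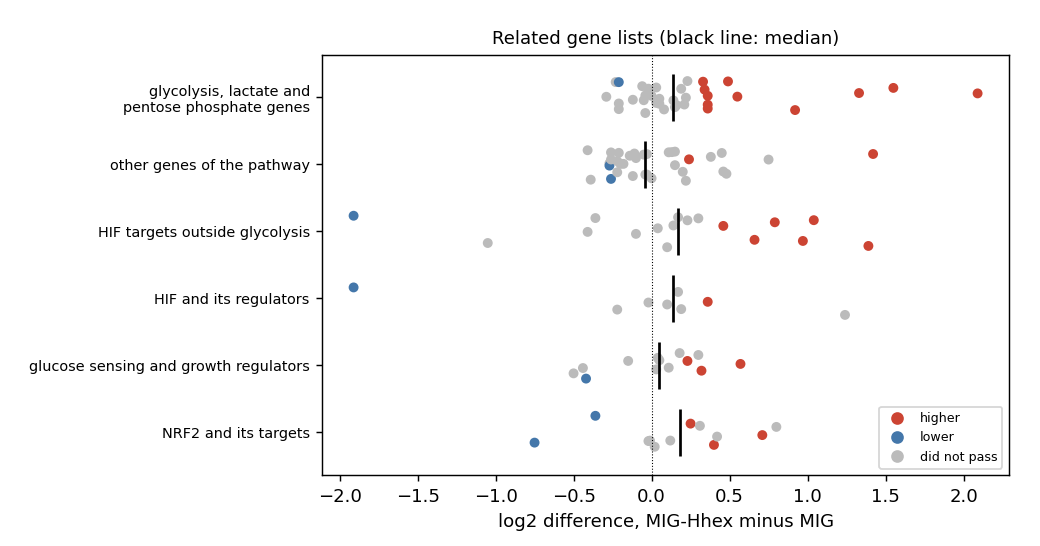
Log2 difference of MIG-Hhex minus MIG (x axis) for the 35 genes and 5 related lists, 1 point per gene coloured by the test, with the median as a black line. Members of each list lie on both sides of 0, and Egln3 at −1.91 is the leftmost point of both HIF lists.

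Some markers of mature cells also differed between the vectors. The shares of all genes, 9.44% higher and 8.52% lower, stand beside the counts of each marker list. Of 13 measured neutrophil genes, 7 rose and 2 fell. Cxcr2, Cebpe and Ngp had the smallest p of those that rose (log2 2.03, 1.67 and 2.08). Mmp9, named after its value was seen as are the 2 that fell, rose by 2.97, while Mpo, the peroxidase of early granulocytes, fell by 3.12 and Mmp8 by 1.94. The summed linear level of the 13 genes was 7360 to 9830 with MIG and 6260 to 9620 with MIG-Hhex. For megakaryocyte genes (3 of 6 rose, among them Cd9 by 1.46 and Itga2b by 0.73, and Pf4 fell by 0.94) the sum was 113 to 147 with MIG and 203 to 262 with MIG-Hhex. Most of that difference was Cd9, at 61.0, 52.9 and 58.3 against 134, 170 and 173 on the linear scale, while the other 5 genes summed to 85.6, 60.5 and 87.4 against 68.6, 78.9 and 89.0. Monocyte, macrophage and dendritic cell genes (3 of 9 rose, 2 fell) summed to 237 to 348 with MIG and 129 to 227 with MIG-Hhex. Erythroid genes (3 of 7 rose, 2 fell) summed to 163 to 195 and 147 to 180. Mast cell, basophil and eosinophil genes (2 of 9 rose, 3 fell) summed to 197 to 425 and 160 to 257. The median log2 differences of these lists were 0.38, 0.71 and 0.31. The lower sums thus do not mean that most of their genes fell. In the monocyte, macrophage and dendritic cell list, Itgax (3.04) and Adgre1 (1.42) rose. Ccr2 (−2.04) and F13a1 (−2.69, named after its value was seen) fell. Their MIG means, 6.18 and 6.71, were the highest of that list. In the erythroid list, the genes with the smallest p were Hba-a1 (3.77), Gata1 (0.71) and Tfrc (−0.29). In the mast cell, basophil and eosinophil list they were Mcpt8 (−1.12), Cpa3 (−2.19) and Alox15 (4.80). Hba-a1 and Alox15 lay below 0 in every MIG library, so the size of their rise is uncertain. Of the 8 stem and progenitor genes, 0 rose and 1 fell, Meis1, by 0.79. With a replicate block Flt3 was also called lower (−0.47, limma adjusted p = 0.0241). Of the 3 lymphoid genes measured 1 fell, and of the 3 endothelial and stromal genes 0 passed, with Kdr, Col1a2 and the lymphoid Il7r below 0 in every library. The other 7 lymphoid and 5 endothelial and stromal markers listed are not analysed here. The part of such cells in the differences above was not tested.

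Base composition also moved with the calls. Median GC content of the transcripts was 54.8% in the 11 genes that rose, 51.9% for the 23 that did not pass and 50.1% for all genes. With the GC trend of each library removed, 12 genes were called higher and 2 lower. Aldoa was no longer called (limma adjusted p = 0.0662), and Pdk1 and Rpe (higher, 0.024 and 0.044) and Hk3 (lower, 0.0374) were, where 9.36% and 8.26% of all genes were called.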

How the data were processed

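Each library has 1 column of log2 values, normalized by the authors, in a deposited table keyed by Entrez gene. Build mm10 and the tools edgeR, limma, featureCounts and Subread are named, per the submitters' processing notes. Not given in the sources used here are versions, the order of steps, the handling of reads with several matches, the normalization and the offset before the log. Depth is therefore unknown, so counting intervals and count models were not used. Values fell weakly with transcript length (Spearman rho −0.217 across genes in 1 library), as for a length-scaled unit. Shares between genes rest on that length scaling, while differences between vectors for 1 gene do not. Those differences still rest on the normalization between libraries and, at low levels, on the offset. Columns were matched to samples by the sample names in the labels, groups were taken from the vector label, and 0 sample columns were left unused.

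All 12161 genes were fitted with limma 3.58.1 in R 4.3.3, with terms for flow cell and vector and a mean-variance trend in eBayes. Two-sided p-values were adjusted by Benjamini-Hochberg over all genes, with a threshold of 0.05 and no filter. Differences are MIG-Hhex minus MIG. The script was tested on simulated data. Related genes were compared by exact permutation over samples (scipy 1.17.1), and near-identical copies were sought with blastn 2.17.0 among GENCODE M21 transcripts. Coordinates are RefSeq's for GRCm38.p6, matched for all 35 genes by Entrez ID, and 34 had a promoter sequence.

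The members, the gene lists and the tests were chosen with earlier results of these data known. All 35 genes are named, and of the 5 related lists up to 6 genes, and of a marker list up to 3, past the threshold with the smallest p. Equal replicate names were taken to pair the libraries. Deviations from the group means correlated across vectors by 0.742 for WT3, 0.585 for WT691 and 0.656 for WT703, and within flow cell C5LWPANXX the WT691 minus WT703 differences correlated by 0.498. The alternatives were no flow cell term, a replicate block, 1 flow cell alone, other eBayes settings, a filter on the mean, log2(2^value + 1), other scalings, GC content (added after seeing the data) and leaving out libraries or replicates.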

Additional observations from a re-analysis of the deposited data

How the results depend on the processing

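The counts of 11 higher and 1 lower gene depended on the fit. They were 1 and 0 without a flow cell term, 7 and 0 in eBayes without a trend, 7 higher on flow cell C5LWPANXX alone, and 0 lower after quantile normalization. The replicate block gave 12 higher and 3 lower, adding Slc16a1, G6pdx and Tkt, and changed no other call of the 35 genes. With the GC trend removed there were 2 lower, and the median difference was 0.11 in place of 0.14. The 11 higher and 1 lower calls were kept with robust eBayes, a filter on the mean, log2(2^value + 1) and median centring. Leaving out libraries or replicates gave 5 to 10 higher genes, 0 to 1 lower and a median of 0.10 to 0.17. The share of all genes called higher fell as well, from 9.44% to 5.74%, 5.16% and 2.92% without WT3, WT691 and WT703. The share called lower fell from 8.52% to 4.27%, 4.09% and 2.22%. Shares for the fits without a single library are not given here. The fewest higher genes came without the MIG-Hhex library of WT691, and the cause was not tested. Signs changed for genes near 0 that were not called. On flow cell C5LWPANXX alone Pdha1 was at −0.05, and after quantile normalization Pgls was at 0.01. In left-out runs the differences ranged from −0.05 to 0.11 for Pdha1, −0.11 to 0.04 for Pfkfb3, −0.11 to 0.07 for Eno1, −0.34 to 0.24 for Mpc1, −0.02 to 0.15 for Mpc2, −0.09 to 0.13 for Pgls, −0.11 to 0.03 for Pgd, −0.08 to 0.04 for Ldha and −0.01 to 0.06 for Rpia. The 8 differences between related genes kept their sign in every alternative run for them. With 3 libraries per group and unknown depth, small differences such as that of Pgam1 are at the limit of what can be called.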
